A study of Mus musculus with 18 samples.

Results

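Clone C2 cells that received Ezh2 after their own Ezh2 gene had been deleted (Ezh2 post-rescue) were compared with cells that had lost Ezh2 and were not given it back (Ezh2 null). These were 4 of the 18 Affymetrix Mouse Gene 1.1 ST arrays of the series, 2 per group, chosen by their titles. All came from 1 clone of immortalized mouse embryonic fibroblasts (iMEFs) that carry an Ezh2 flox/Δ genotype and a ROSA26-CreERT2 transgene, which expresses a tamoxifen-dependent Cre recombinase, and that were transformed by retroviral c-Myc. In post-rescue cells Ezh2 was supplied by the MSCVhygro-Flag-Ezh2 retrovirus with hygromycin selection. Whether null cells went through infection or selection is not stated in the sources used here, so the effect of Ezh2 and that of infection and selection cannot be told apart. The same experiment held Ezh2 pre-rescue and Ezh1 pre-rescue cells, which received the enzyme before deletion, and control cells labelled wild type for Ezh2, with 2 arrays each. A separate time course, normalized apart, held arrays taken 5, 18 and 32 days after tamoxifen and after vehicle (ethanol), again 2 each.

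Ezh2 is the catalytic subunit of Polycomb repressive complex 2 (PRC2), which methylates lysine 27 of histone H3 at silent developmental genes. PRC1, a second Polycomb complex, can bind this mark through its Cbx subunits, and both act against trithorax-group activators. When Ezh2 is lost, the mark is diluted as cells divide and some of its target genes become active. The comparison asks which of these genes are silenced again once the enzyme is returned, and which keep their new level.

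Values are log2 intensities, so that a difference of 1 is 2-fold, and errors are standard errors of the difference (n = 2 arrays per group). The number of arrays limits the precision of every value. The 95% confidence interval of the difference reached a median of 0.24 to either side. Whether replicates were separate cultures is not given in the labels, and the spread behind the p-values may thus be technical. Array medians lay between 6.16 and 6.27, and replicates correlated across genes at 0.993 in post-rescue and 0.991 in null cells. The 2 null arrays differed from each other by at least 2-fold at 109 genes, against 6 genes between the post-rescue arrays and 94 between the control arrays. The fibroblast marker Fn1, the gene of fibronectin, was high in both groups, at 12.70 and 12.76 in post-rescue and 12.71 and 12.41 in null cells. It is 1 of 12 fibroblast markers, and it moved less than the list, whose median difference was 0.38. Of the 12, 6 were higher and 1 lower in post-rescue cells at an unadjusted p under 0.05 by limma. Other lists held 114 genes that mark smooth or skeletal muscle, fat, neurons, epithelium, endothelium, blood, pluripotent or germ cells. Of these, 0 rose and 0 fell by limma, and the list medians lay between −0.04 and 0.10. At an unadjusted p under 0.05 by limma, 3 were higher and 4 lower. Over all 18820 genes 1349 were higher and 1243 lower at that threshold, to be read beside each unadjusted count below.

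The supplied gene was read first. Ezh2 read 12.55 and 12.12 in post-rescue cells, against 10.46 and 10.48 in null cells and 10.36 and 10.56 in control cells. Both post-rescue arrays stood above all null and control arrays, and Ezh2 rose by 1.86 ± 0.173 (limma adjusted p = 0.0109). Its probe set read null and control cells alike, so it checks the added Ezh2 and says nothing about the deletion. In Ezh2 pre-rescue cells it read 12.26 and 11.84, and the post-rescue minus pre-rescue difference was 0.28 (limma adjusted p = 0.523; 0.308% of all genes were lower and 0.574% higher in that comparison). These values are of RNA. By Western blot the paper reports Ezh2 protein and its histone mark near wild-type levels in both Ezh2 rescues. None of the other 12 PRC2 subunit genes measured rose or fell. Phf19, which encodes an accessory subunit that brings PRC2 to its targets, read 7.27 and 7.07 in post-rescue cells, 7.56 and 7.54 in null cells and 6.35 and 6.30 in control cells (difference −0.38 ± 0.0858, limma adjusted p = 0.105). Ezh1, the paralogous enzyme, differed by 0.21 ± 0.157. Of 21 PRC1 subunit genes and 16 genes of H3K27 demethylases and trithorax-group enzymes, 0 rose and 0 fell by limma, with 4 and 3 past an unadjusted p under 0.05.

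Across 18820 genes, 77 were lower in post-rescue than in null cells (0.409%) and 36 were higher (0.191%) by limma at an adjusted p under 0.05. In what follows, fell and rose mean this, at any fold. Of these, 33 fell by at least 2-fold (0.175%) and 15 rose by at least 2-fold (0.0797%). Without regard to p, 70 genes were lower and 43 higher by at least 2-fold. The 95% interval lay wholly within 2-fold for 18192 genes (96.7%). The calls rested on each array, as counts with 1 array left out at a time showed. They were 2 lower and 1 higher without post-rescue replicate 1, 3 and 2 without post-rescue replicate 2, 131 and 95 without null replicate 1, 51 and 26 without null replicate 2, and 187 and 187 without either control array. A group left with 1 array was taken to vary as the others did. The counts were 45 and 19 without either Ezh1 pre-rescue array and 26 and 12 without either Ezh2 pre-rescue array. With quantile normalization 104 genes were lower and 77 higher. Without the replicate number as a block the counts were 143 and 122.

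**Figure D1:**
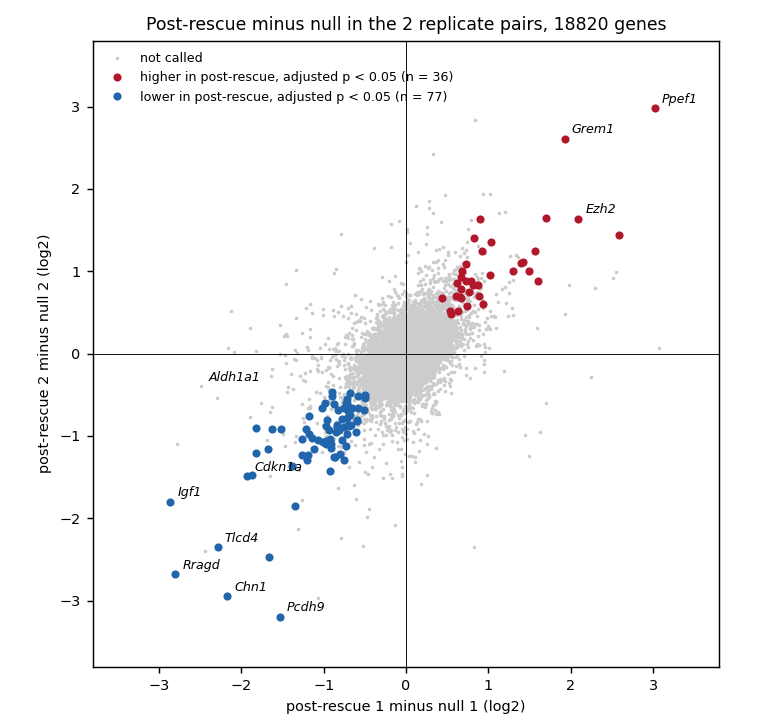
Difference between post-rescue and null cells in the first replicate pair (x axis, log2) and the second (y axis, log2), with 1 point per gene for 18820 genes. Blue points are the 77 genes that fell and red points the 36 that rose. Ppef1, Grem1 and Ezh2 stood at the upper right and Rragd, Chn1 and Pcdh9 at the lower left, while Aldh1a1, whose null arrays differed, was low mainly in the first pair.

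The largest falls were those of Rragd, Chn1, Pcdh9, Igf1 and Tlcd4. Rragd, which encodes a Rag GTPase that signals amino acid supply to mTORC1, read 6.26 and 6.25 in post-rescue cells, against 9.07 and 8.93 in null cells and 5.86 and 6.46 in control cells. Both post-rescue arrays lay between the control arrays. It fell by 2.74 ± 0.195 (limma adjusted p = 0.0062), which is 6.69-fold.

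Chn1, the gene of the Rac GTPase-activating protein chimaerin 1, read 5.52 and 4.95 in post-rescue cells, 7.70 and 7.90 in null cells and 4.75 and 4.75 in control cells (difference −2.56 ± 0.208, limma adjusted p = 0.00792). Tlcd4, a gene for a multipass membrane protein, read 4.19 and 4.15 in post-rescue cells, 6.48 and 6.50 in null cells and 4.16 and 4.06 in control cells. Its replicates were the closest of these, and it fell by 2.32 ± 0.0802 (limma adjusted p = 8.48e-05). Tlcd4 and Chn1 passed the threshold under every alternative run on them, 18 and 19 in number, most of them with 1 array left out. Pcdh9, a protocadherin gene, fell by 2.36 ± 0.335. It read 6.16 and 5.49 in post-rescue cells, which was below both null arrays at 7.70 and 8.68 and above both control arrays at 5.27 and 5.06.

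Igf1, the gene of insulin-like growth factor 1, read 7.0 and 6.78 in post-rescue cells, 9.87 and 8.58 in null cells and 5.95 and 6.62 in control cells. Null replicate 1 was well above null replicate 2, and the fall of 2.33 ± 0.373 passed the threshold narrowly (limma adjusted p = 0.0496). Cdkn1a, which encodes the cell cycle inhibitor p21, read 6.32 and 6.46 in post-rescue cells, 8.25 and 7.95 in null cells and 7.27 and 6.62 in control cells. Post-rescue arrays were thus below both of the other groups, and the fall from null was 1.71 ± 0.175 (limma adjusted p = 0.0123). Among the further genes of this size were Iqgap2, a scaffold of the actin cytoskeleton (−2.07), Fxyd5, a regulator of the sodium pump (−1.67), Cecr2, a bromodomain chromatin remodelling factor (−1.60), the homeobox gene Vax2 (−1.42) and the ephrin gene Efna3 (−1.37). Calcrl, a G protein-coupled receptor gene, fell by 1.27 and Raver2, which encodes an RNA-binding protein, by 1.25.

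Some genes that fell did not end near control cells. Over all genes, 0.197% were lower and 0.51% higher in post-rescue than in control cells, and 0.755% lower and 1.2% higher in null than in control cells, and these comparisons share arrays with that of post-rescue and null cells. Prkaa2, which encodes the alpha 2 catalytic subunit of AMP-activated kinase and was picked after its values were seen, read 8.51 and 8.25 in post-rescue cells, 9.26 and 9.54 in null cells and 6.70 and 6.60 in control cells. It fell by 1.02 ± 0.16 against null (limma adjusted p = 0.048) and was still 1.73 above control (limma adjusted p = 0.00465). Hoxb13 likewise fell by 1.15 ± 0.0842, to 6.20 and 6.26 in post-rescue cells against 7.47 and 7.30 in null cells, and was 0.64 above control (limma adjusted p = 0.0219).

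In others the post-rescue arrays lay below the control arrays. Hectd2, which encodes a HECT-domain ubiquitin ligase, read 6.64 and 6.80 in post-rescue cells, 8.46 and 8.0 in null cells and 8.19 and 8.26 in control cells. The null and control arrays overlapped, and post-rescue cells were lower than null by 1.51 ± 0.146 (limma adjusted p = 0.0118). Avpr1a, a vasopressin receptor gene, behaved alike at 6.92 and 7.45 in post-rescue cells, 8.73 and 8.35 in null cells and 8.68 and 8.24 in control cells. Chac1, a glutathione-degrading enzyme gene of the stress response, is described with its list.

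**Figure D2:**
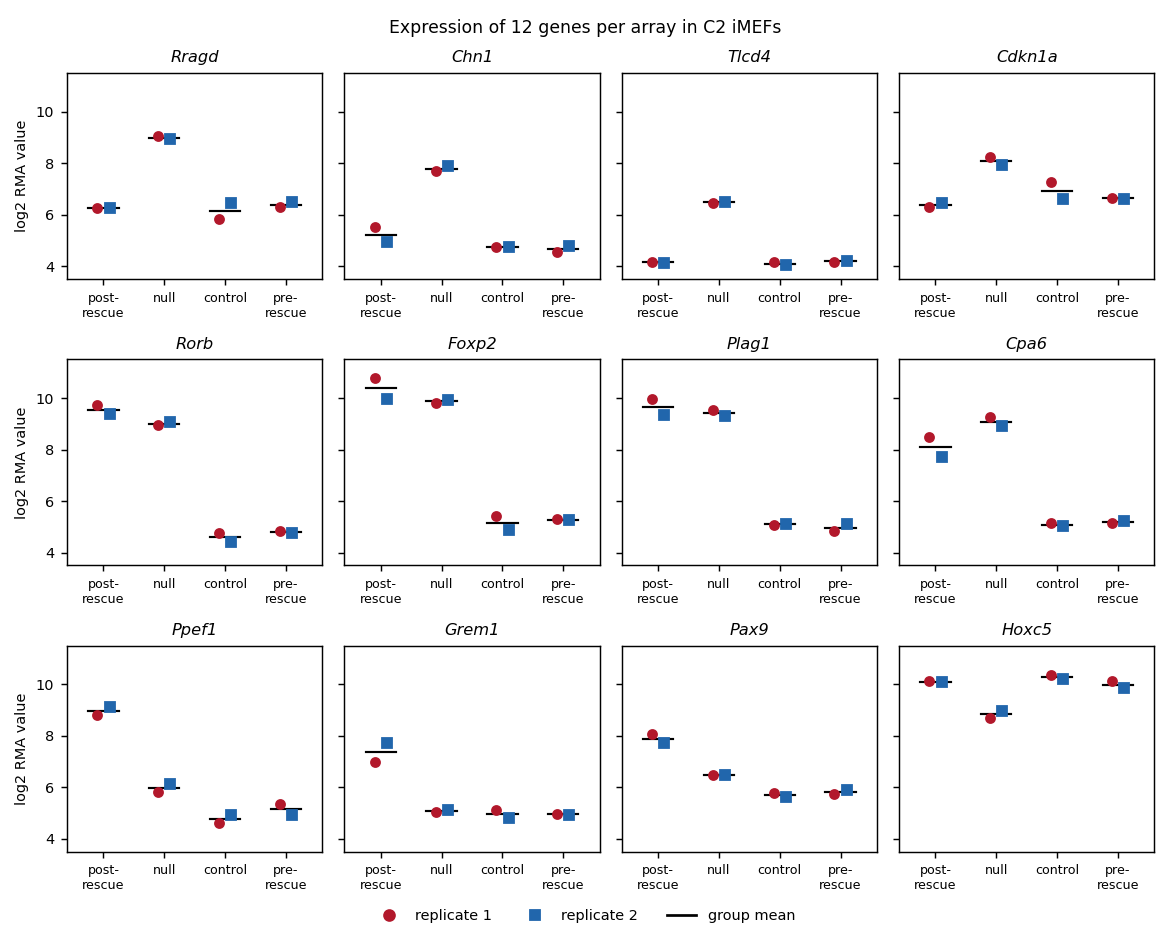
RMA values on the log2 scale (y axis) for 12 genes in post-rescue, null, control and Ezh2 pre-rescue cells (x axis), with 1 point per array and a bar at each group mean. The top row holds genes that fell, such as Tlcd4 at 4.19 and 4.15 in post-rescue against 6.48 and 6.50 in null cells. The middle row holds genes of the time course for which no fall passed the test, such as Plag1 at 9.97 and 9.32 against 9.54 and 9.31, and the bottom row holds genes that rose.

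The genes that rose included several that were lower in null and in control cells than in post-rescue cells. Null cells were above control by 1.19 for Ppef1 and 0.79 for Pax9 (limma adjusted p = 0.0474 and 0.0369). Ppef1, which encodes a calcium-binding protein phosphatase, read 8.82 and 9.10 in post-rescue cells, against 5.80 and 6.12 in null cells and 4.60 and 4.94 in control cells. The 3 groups did not overlap, and the rise over null was 3.00 ± 0.225 (limma adjusted p = 0.0062). Grem1, which encodes a secreted antagonist of bone morphogenetic proteins, read 6.97 and 7.73 in post-rescue cells, 5.04 and 5.12 in null cells and 5.13 and 4.82 in control cells (difference 2.27 ± 0.215, limma adjusted p = 0.0118). Here null and control arrays overlapped and only post-rescue cells stood apart among these 3 groups.

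Pax9, a paired-box transcription factor gene, read 8.05 and 7.72 in post-rescue cells, 6.49 and 6.48 in null cells and 5.77 and 5.61 in control cells (difference 1.40 ± 0.139, limma adjusted p = 0.0118). Slc6a17, a vesicular amino acid transporter gene of neurons, rose by 1.24 ± 0.184, and Itga11, which encodes a subunit of a collagen-binding integrin, by 1.25 ± 0.166. Plaat1, a phospholipid-metabolizing enzyme gene, rose by 1.08 ± 0.116 over null cells and was 1.05 above control (limma adjusted p = 0.00982).

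For other genes that rose, the null arrays lay below the post-rescue and the control arrays. Hoxc5, a Hox gene of the HoxC cluster, read 10.11 and 10.08 in post-rescue cells, 8.69 and 8.97 in null cells and 10.36 and 10.18 in control cells, and rose by 1.27 ± 0.126 (limma adjusted p = 0.0118). Angptl1, which encodes a secreted angiopoietin-like protein, read 9.30 and 9.11 in post-rescue cells, 6.70 and 7.67 in null cells and 7.92 and 8.99 in control cells (difference 2.02 ± 0.274). Its post-rescue arrays were above all null and control arrays. The actin regulator gene Gas7 rose by 1.26, the adaptor gene Stac2 by 1.24 and Fam180a by 1.15. Null cells were below control at the threshold for Hoxc5 and Fam180a (limma adjusted p = 0.00317 and 0.00222) and not for Angptl1, Gas7 and Stac2 (limma adjusted p = 0.0695, 0.1 and 0.321).

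Mir140, a microRNA gene of cartilage that lies within an intron of Wwp2, was named after its values were seen. Its mature 3p strand (RefSeq, GRCm38.p6, chr8:107551288-107551308, plus strand) is shown because the gene and its host both rose, with the seed in capitals.
mmu-miR-140-3p: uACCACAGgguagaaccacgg
The Mir140 probe set read 6.82 and 6.74 in post-rescue cells, 5.13 and 5.10 in null cells and 7.02 and 7.66 in control cells, and rose by 1.67 ± 0.177 (limma adjusted p = 0.0137). The probe set reads the precursor transcript, and the mature strand was not measured. Wwp2, which encodes a ubiquitin ligase, read 10.44 and 10.50 in post-rescue cells, 9.70 and 9.41 in null cells and 10.69 and 10.97 in control cells (difference 0.91 ± 0.138, limma adjusted p = 0.0435).

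Sets were taken from the time course to ask which genes that changed after tamoxifen also moved in post-rescue cells. Its arrays are independent of the rescue arrays. A set of 326 genes (1.73%) was at least 2-fold higher, and a set of 160 (0.85%) at least 2-fold lower, than vehicle at both day 18 and day 32 at a limma adjusted p under 0.05. The effects of tamoxifen and of Ezh2 loss cannot be told apart in these sets. They were chosen without the histone mark, so direct and indirect targets of PRC2 are not separated in them. Of the 326 genes, 36 (11.0%) fell in post-rescue against null cells and 2 (0.61%) rose, beside 0.409% and 0.191% of all genes. The 2 were Ppef1 and Slc6a17. Both post-rescue arrays were below both null arrays for 171 of the 326 (52.5%), against 20.4% of all genes, and 27 were at least 2-fold lower in both replicate pairs, against 0.17% of all genes. In the other direction 2 of the 326 were at least 2-fold higher in both pairs, against 0.0903% of all genes. The median difference of the set was −0.36 (−0.34 in the first pair and −0.42 in the second), beside 0.02 for all genes. The 95% interval was within 2-fold for 194 of the 326 (59.5%), against 96.7% of all genes.

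The set as a whole thus stood between null and control cells. Its median level was 7.02 in post-rescue cells, 7.39 in null cells, 6.10 in Ezh2 pre-rescue cells and 6.11 in control cells. A median of levels is not that of differences taken gene by gene. Taken so, the median difference from control was 0.22 in post-rescue and 0.82 in null cells. With 1 array left out at a time, the count that fell was 2 without either post-rescue array, 20 without either Ezh2 pre-rescue array, 59 without null replicate 1 and 61 without either control array, whereas the set's median lay between −0.43 and −0.30 whichever array was left out. Of the 77 genes that fell, 36 (46.8%) belonged to this set. Among the 55 genes that had risen at least 4-fold at both times, 9 (16.4%) fell, 0 rose and 13 (23.6%) stayed within 2-fold, and their median difference was −0.62. The size of the rise at day 32 and the difference from null were related by r = −0.035 across the 326 genes, which are read on the same arrays and are not independent replicates.

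**Figure D3:**
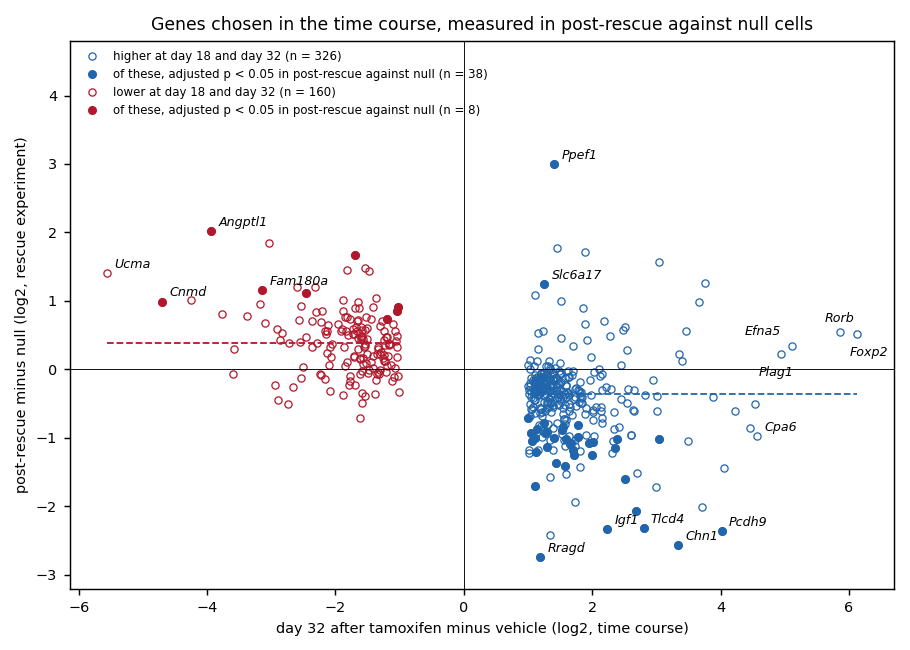
Change at day 32 after tamoxifen (x axis, log2, time course) and difference between post-rescue and null cells (y axis, log2) for the 326 genes higher (blue) and 160 lower (red) at both late times. Filled points passed an adjusted p under 0.05 in post-rescue against null cells, and dashed lines mark the set medians of −0.36 and 0.38. Rorb, Foxp2 and Plag1, at the far right, lay above 0, and Rragd, Chn1 and Pcdh9 lay lowest.

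Of the 10 with the largest change at day 32, Pcdh9 alone fell, 0 rose, and Plag1 alone was bounded within 2-fold. For the other 8 the interval was too wide to call either way. In all 10 both post-rescue arrays stayed above both control arrays, and the share of all genes with this order was not counted. The mean difference from control ran from 0.66 for Pcdh9, which did not pass (limma adjusted p = 0.623), to 5.22.

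Rorb, which encodes an orphan nuclear receptor, read 9.72 and 9.37 in post-rescue cells, 8.94 and 9.06 in null cells and 4.76 and 4.42 in control cells. The difference from null was 0.54, with an interval of −0.27 to 1.35 (limma adjusted p = 0.561), and both post-rescue arrays were above the null ones. Foxp2, a forkhead transcription factor gene, read 10.79 and 9.98 in post-rescue cells, 9.83 and 9.91 in null cells and 5.44 and 4.89 in control cells (difference 0.52, interval −1.01 to 2.05). Plag1, a zinc finger transcription factor gene, read 9.97 and 9.32 in post-rescue cells, 9.54 and 9.31 in null cells and 5.07 and 5.11 in control cells, and its interval was −0.37 to 0.81. Chchd7, its neighbour on the chromosome, read 9.87 and 9.66 in post-rescue cells, 9.92 and 9.60 in null cells and 8.05 and 8.18 in control cells. Post-rescue and null cells overlapped well above control, and the interval of the difference was −0.26 to 0.26.

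Cpa6, a carboxypeptidase gene whose nascent transcripts were also imaged in the study, read 8.49 and 7.71 in post-rescue cells, 9.25 and 8.90 in null cells and 5.13 and 5.02 in control cells. Both post-rescue arrays lay below the null arrays and far above control, and the difference of −0.97 ± 0.349 did not pass (limma adjusted p = 0.27). It was 3.02 above control (limma adjusted p = 0.0123). Arrays are of bulk cultures, in which fewer cells expressing a gene and less RNA per cell cannot be told apart. The ubiquitin ligase gene Rnf128 (−0.85), the Hox gene Hoxb9 (−0.61) and the RNA-binding protein gene Igf2bp3 (−0.51), had means below null without passing the test. For 2 genes the null arrays disagreed. Efna5, an ephrin gene, read 7.82 and 7.25 in post-rescue cells and 6.19 and 8.20 in null cells, and Aldh1a1, a retinaldehyde dehydrogenase gene, read 7.46 and 6.50 in post-rescue cells and 9.95 and 6.90 in null cells.

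A narrow interval did not by itself mark a gene that stayed above control. Clspn, which acts in the replication checkpoint, and Lig1, a DNA ligase gene of replication, were in the set but read alike in post-rescue, null and control cells, with Clspn at 7.76 and 7.37 in post-rescue cells, 7.76 and 7.32 in null cells and 7.70 and 7.23 in control cells. The 194 genes within 2-fold therefore hold both kinds.

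In the set of 160 genes lower in the time course, 8 (5.0%) rose and 0 fell by limma, beside 0.191% and 0.409% of all genes. At an unadjusted p under 0.05 by limma, 69 were higher and 1 lower, beside 1349 and 1243 of all 18820 genes. Both post-rescue arrays were above both null arrays for 101 (63.1%), against 28.0% of all genes, and the median difference was 0.38 (0.24 and 0.52 in the 2 pairs). The set's median level was 8.45 in post-rescue cells, 7.99 in null cells and 8.80 in control cells. Gene by gene, the median difference from control was −0.27 in post-rescue and −0.68 in null cells. With 1 array left out at a time, the count that rose was 0 without either post-rescue array, 1 without null replicate 2, 2 without either Ezh2 pre-rescue array, 23 without null replicate 1 and 26 without either control array.

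Its members that rose were Angptl1, Mir140, Wwp2, Fam180a, Ccl5, Cnmd, Matn2 and Naaa. Cnmd, which encodes chondromodulin, an inhibitor of vessel growth in cartilage, read 8.29 and 8.78 in post-rescue cells, 7.27 and 7.82 in null cells and 9.28 and 9.36 in control cells. It was higher than null by 0.99 ± 0.15 (limma adjusted p = 0.0435) and still below both control arrays. Matn2, a matrix adaptor protein gene, rose by 0.85 and Naaa, which encodes a lysosomal amidase, by 0.74. Ucma, the cartilage gene with the largest fall at day 32, read 7.51 and 8.08 in post-rescue cells and 5.53 and 7.25 in null cells, and did not pass (limma adjusted p = 0.16).

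Gene lists were read by their counts and medians. Of the 33 lists with more than 1 measured member, the integrated stress response had the lowest median. It is the program that the transcription factor ATF4 runs when amino acids or folded proteins are short, and many of its genes carry a C/EBP-ATF response element. Of 21 measured members 3 fell (14.3%, against 0.409% of all genes) and 0 rose, and the median was −0.32 (−0.35 and −0.30 in the pairs). For 19 of 21 (90.5%, against 20.4% of all genes) both post-rescue arrays were below both null arrays. Only Ddit4 and Cebpb were above 0.

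The promoters of 4 members, chosen from 7 with the element after their values were seen, are printed (RefSeq, GRCm38.p6, gene strand, 250 bases before to 50 after the start) to show the element in its core form TGATGNAA or, on the other strand, TTNCATCA, here in capitals. Of 19 members with a window, 7 (36.8%) held it, against 4.51% of all 27025 genes in the promoter table, measured or not. Many genes of this program carry the element, so a high share follows from how the list was made and is not a result. Of 62 genes that fell and had a window, on the list or not, 5 (8.1%) held it. The motif was searched after the values were known, and a match is a description and not a binding site. The windows are chr2:119350992-119351291 on the plus strand for Chac1, chr7:126625421-126625720 on the minus strand for Nupr1, chr1:191183284-191183583 on the minus strand for Atf3 and chr2:152344011-152344310 on the minus strand for Trib3.
Chac1: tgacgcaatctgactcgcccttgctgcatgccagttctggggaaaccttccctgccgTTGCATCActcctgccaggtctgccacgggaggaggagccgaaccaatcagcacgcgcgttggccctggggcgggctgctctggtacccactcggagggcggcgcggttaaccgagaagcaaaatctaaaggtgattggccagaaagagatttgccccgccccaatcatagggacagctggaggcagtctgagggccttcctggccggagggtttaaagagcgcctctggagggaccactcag
Nupr1: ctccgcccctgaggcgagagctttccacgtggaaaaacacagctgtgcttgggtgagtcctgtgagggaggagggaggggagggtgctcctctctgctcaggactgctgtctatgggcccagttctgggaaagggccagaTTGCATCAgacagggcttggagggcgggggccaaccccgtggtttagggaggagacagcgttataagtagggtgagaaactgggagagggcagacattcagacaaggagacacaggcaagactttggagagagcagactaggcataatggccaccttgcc
Atf3: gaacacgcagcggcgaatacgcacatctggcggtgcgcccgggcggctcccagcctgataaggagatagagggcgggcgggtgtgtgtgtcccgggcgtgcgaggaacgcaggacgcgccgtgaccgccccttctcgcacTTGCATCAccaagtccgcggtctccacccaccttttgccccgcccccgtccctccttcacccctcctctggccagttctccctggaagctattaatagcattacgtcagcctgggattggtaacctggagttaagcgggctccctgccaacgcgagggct
Trib3: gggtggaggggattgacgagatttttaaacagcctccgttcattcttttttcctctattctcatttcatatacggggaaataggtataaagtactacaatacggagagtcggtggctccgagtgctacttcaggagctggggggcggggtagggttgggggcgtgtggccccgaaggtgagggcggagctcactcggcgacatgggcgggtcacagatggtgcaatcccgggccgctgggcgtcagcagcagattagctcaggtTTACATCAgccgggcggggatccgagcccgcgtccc

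Chac1 read 7.76 and 7.99 in post-rescue cells, 9.28 and 8.91 in null cells and 9.19 and 8.65 in control cells, so that post-rescue cells were below both (difference from null −1.22 ± 0.162, limma adjusted p = 0.0268). Nupr1, a stress-induced chromatin protein gene, read 7.47 and 7.39 in post-rescue cells, 8.19 and 8.17 in null cells and 7.52 and 7.60 in control cells (−0.75 ± 0.119, limma adjusted p = 0.0487). Cth, the gene of cystathionine gamma-lyase, which makes cysteine, read 8.01 and 7.95 in post-rescue cells, 8.83 and 8.63 in null cells and 8.46 and 8.09 in control cells (−0.75 ± 0.116, limma adjusted p = 0.0449). Atf3, a transcription factor gene of the program, was at −1.03 and Trib3, a pseudokinase gene that dampens it, at −0.90, and neither passed (limma adjusted p = 0.116 and 0.0593). Atf4 itself was at −0.21. The 7 members with the motif lay between −1.22 and −0.26, with a median of −0.90, and the 12 without it between −0.34 and 0.40, with a median of −0.20. Cth, which fell, had no window and is in neither group. A part of the motif in these changes was not tested.

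**Figure D4:**
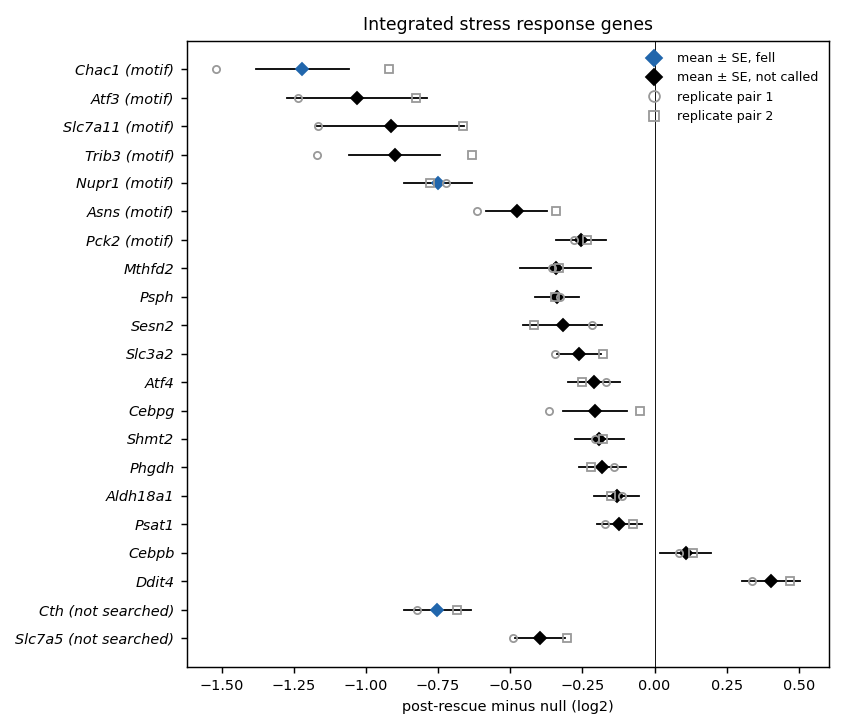
Difference between post-rescue and null cells (x axis, log2) for 21 genes of the integrated stress response (y axis), as mean ± standard error (diamonds, blue where the gene fell) and in each replicate pair (open symbols). Genes whose promoter window holds the motif are marked and lie at the top, from Chac1 at −1.22 to Pck2 at −0.26.

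Of 41 measured genes of the matrix and fibroblast list, 2 rose (4.9%, against 0.191% of all genes) and 0 fell, with a median of 0.24 (0.15 and 0.29 in the pairs). For 23 (56.1%, against 28.0% of all genes) both post-rescue arrays were above both null arrays. Those that rose encode chains of collagen VI. Col6a1 read 11.04 and 10.99 in post-rescue cells, 10.23 and 10.16 in null cells and 10.63 and 10.78 in control cells (0.82 ± 0.107). Col6a2 read 10.21 and 10.18 in post-rescue cells, 9.45 and 9.43 in null cells and 9.80 and 9.97 in control cells (0.75 ± 0.0806). For both genes the order of the groups was the same, with null lowest. Col1a1 was at 1.1 ± 0.191 (limma adjusted p = 0.0594). Of 12 fibroblast markers 0 rose and 0 fell by limma, with 6 higher and 1 lower at an unadjusted p under 0.05 (median 0.38). Of 20 cartilage and bone genes 1, Cnmd, rose (5.0%, against 0.191% of all genes), and the median was 0.14.

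Of 33 interferon response genes, 0 rose and 0 fell by limma. At an unadjusted p under 0.05 by limma, 13 were higher and 0 lower, beside 1349 and 1243 of all 18820 genes. The median was 0.36, and the pairs gave 0.16 and 0.51. Dhx58, which encodes a sensor of viral RNA, read 9.87 and 9.81 in post-rescue cells and 9.15 and 8.83 in null cells (0.85 ± 0.147, limma adjusted p = 0.0593). In post-rescue cells the list was 0.63 above control in the median, and in null cells 0.32 above control. The time course went the other way, with a list median of −1.36 at day 32 against vehicle. Tapbp, which loads peptides onto MHC class I, was the 1 of 14 antigen presentation genes that rose (7.1%, against 0.191% of all genes). It read 10.85 and 10.81 in post-rescue cells and 10.18 and 10.03 in null cells (0.72 ± 0.0959). Among 25 chemokine and inflammation genes Ccl5 rose by 1.11 (4.0%) and Ccl20 fell by 0.87 (4.0%, against 0.409% of all genes).

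Among 140 genes listed as developmental transcription factors, a class with many Polycomb targets, 3 fell (2.1%, against 0.409% of all genes), 1 rose (0.71%, against 0.191%), and 123 were bounded within 2-fold (beside 96.7% of all genes). Foxa1, a pioneer factor gene, read 6.72 and 6.66 in post-rescue cells, 7.63 and 7.75 in null cells and 6.50 and 6.51 in control cells (−1.0 ± 0.0874, limma adjusted p = 0.00949). The others that fell were Onecut2 (−0.91) and Igf2bp1, an RNA-binding protein gene kept in that list (−0.78), and Pax9 was the 1 that rose.

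Of 36 Hox genes Hoxb13 and Hoxc9 fell (5.6%, against 0.409% of all genes) and Hoxc5 rose (2.8%, against 0.191%). Within the HoxC cluster the genes Hoxc4, Hoxc6 and Hoxc8, at 0.57, 0.46 and 0.51, lay on the same side as Hoxc5 without passing (limma adjusted p = 0.0777, 0.074 and 0.0887), whereas Hoxc9 read 8.11 and 8.22 in post-rescue cells against 9.01 and 8.73 in null cells (−0.70 ± 0.109, limma adjusted p = 0.0459).

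The lists that follow stand beside 0.409% of all genes that fell and 0.191% that rose, shares that a single called gene exceeds in lists this short. Grem1 was the 1 of 37 TGF beta and BMP genes that rose (2.7%). Tgfbr1, a type I receptor gene, was the 1 that fell (2.7%), at 8.20 and 7.98 in post-rescue cells against 8.93 and 9.10 in null cells (−0.92 ± 0.102). Of 46 Wnt genes the agonist gene Rspo3 fell by 0.90 (2.2%), and of 15 genes of the IGF axis Igf1 and Igf2bp1 fell (13.3%). Of 45 axon guidance genes Efna3 fell (2.2%), and of 33 protocadherins Pcdh9 fell (3.0%). In the glycolysis and hypoxia list of 31, Aldoc, a glycolytic aldolase gene, rose by 1.19 and the hexokinase gene Hk1 by 0.65 (6.5%). The vascular growth factor gene Vegfa fell by 0.75 (3.2%).

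Of 28 proliferation genes 0 rose, 0 fell and 0 passed an unadjusted p under 0.05 by limma, all 28 were bounded within 2-fold, and the median of −0.11 came from the first pair (−0.25, against 0.004 in the second). Among Myc targets and genes that build ribosomes, 31 were measured and by limma 0 rose and 0 fell, with 0 higher and 6 lower at an unadjusted p under 0.05, and 29 were below 0 (median −0.15). Cdkn1a was the 1 that fell among 10 cell cycle inhibitors (10%) and the 1 among 24 p53 targets (4.2%), against 0.409% of all genes. Cdkn2a, the inhibitor gene that PRC2 is known to silence, was at 0.28 ± 0.081 (limma adjusted p = 0.176). Its level in null cells was not above control (difference −0.0074, limma adjusted p = 0.98). At day 32 of the time course it was at −0.23 against vehicle (limma adjusted p = 0.081). With no rise after the loss of Ezh2, Cdkn2a cannot show whether silencing returned. All 19 cholesterol synthesis genes were above 0, 0 rose and 0 fell by limma, 2 were higher at an unadjusted p under 0.05, and the median was 0.14. Of 25 imprinted genes 0 rose and 0 fell by limma, with 4 higher and 2 lower at an unadjusted p under 0.05.

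**Figure D5:**
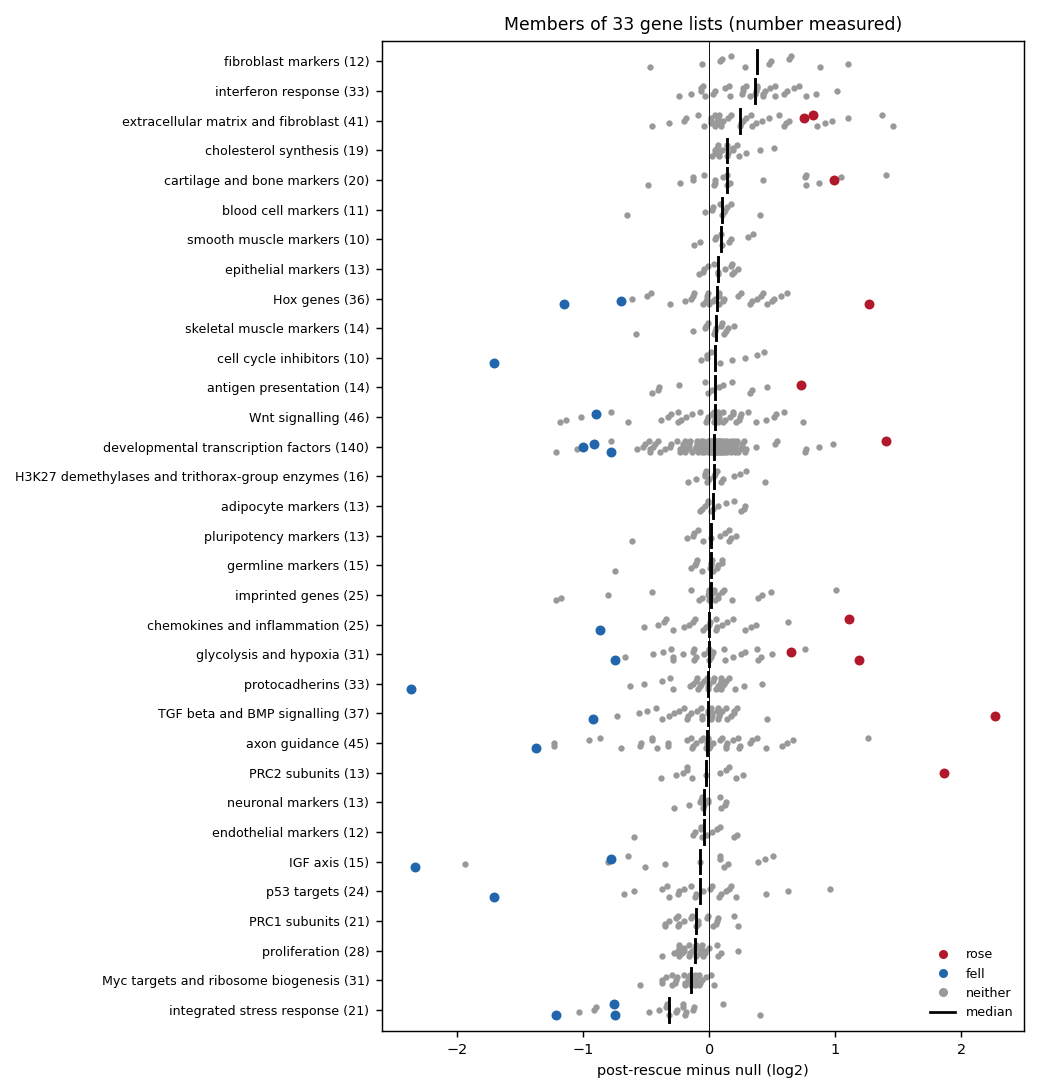
Difference between post-rescue and null cells (x axis, log2) for the members of 33 gene lists (y axis, number measured in brackets), with red points for genes that rose, blue for genes that fell and a bar at each median. Medians ran from −0.32 for the integrated stress response to 0.38 for fibroblast markers, and most lists held 0 or 1 called gene.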

How the data were processed

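RNA of 18 samples was hybridised to Affymetrix Mouse Gene 1.1 ST arrays, 10 in the rescue experiment and 8 in the time course. The authors made the deposited log2 values with RMA in the R package oligo, each experiment apart. Their methods state a batch correction between first and second replicates of the rescue experiment, and whether the deposited values carry it is not stated. The genome build is not given in the sources used here. Of 28440 probe sets 21217 had 1 gene symbol, 1881 several and 5342 none, and 21184 of the symbols were matched by identifier. Where several probe sets read a gene (1386 genes) the brightest on average stood for it, giving 18820 genes, with no filter on dim values.

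limma 3.58.1 in R 4.3.3 fitted all 10 rescue arrays, with 1 mean per group and the replicate number as a block, and two-sided p-values were adjusted by Benjamini-Hochberg across the table. The number marks a batch per the methods. In the data replicate differences of the groups correlated between −0.43 and 0.54 over 10 pairs of groups (0.022 for null and post-rescue). The contrasts of post-rescue with null, control and Ezh2 pre-rescue cells share arrays, so their values stand side by side only. Time-course sets came from a fit without a block. The fit was tested on simulated data. Genes named were fixed members (Ezh2, Ezh1, Cpa6, Cdkn2a, Cdkn1a), the 15 largest changes each way past the threshold, up to 4 members of each list by p, and the leading genes of the time-course sets. Mir140, Prkaa2, Matn2, Naaa, Fn1, Hoxc4, Hoxc8 and 5 stress response genes (Atf3, Atf4, Cebpb, Ddit4, Pck2) fall outside that rule and were named after their values were seen. The comparison, its members and the gene lists were chosen with earlier results of these data known. Alternatives were the block, the arrays fitted, centring, quantile normalization, a filter, an intensity trend, a looser threshold, the set rules and each array left out. The CpG content of promoters was not reported, because windows were found for 78.4% of the genes, under the minimum of 80%. Figures were drawn with matplotlib 3.10.9.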

Additional observations from a re-analysis of the deposited data

Results flagged for a closer look

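For 19 of the 79 genes named in the text the change against null cells differed between Ezh2 given after and before deletion, tested as post-rescue minus Ezh2 pre-rescue in the same limma fit, in which 58 genes were lower (0.308%) and 108 higher (0.574%). Both changes use the same null arrays. Many of the 79 genes were named for large differences on the same post-rescue arrays that this test reads. The 19 of 79 can therefore not be weighed against the shares over all genes. Times of infection were not given in the labels, and their part was not tested.

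Of genes that rose in post-rescue against null cells, Ppef1 differed by 3.82 ± 0.225 (limma adjusted p = 0.00157), with changes against null of 3.00 in post-rescue and −0.82 in pre-rescue cells. Grem1 differed by 2.39 ± 0.215 (limma adjusted p = 0.0059), with 2.27 in post-rescue and −0.13 in pre-rescue cells. Pax9 differed by 2.09 ± 0.139 (limma adjusted p = 0.00234), with 1.40 in post-rescue and −0.68 in pre-rescue cells. Slc6a17 differed by 1.78 ± 0.184 (limma adjusted p = 0.00909), with 1.24 in post-rescue and −0.54 in pre-rescue cells. Aldoc differed by 1.15 ± 0.108 (limma adjusted p = 0.00656) and Plaat1 by 1.08 ± 0.116 (limma adjusted p = 0.0108), with changes against null of 1.19 and 1.08 in post-rescue cells and of 0.04 and −0.00078 in pre-rescue cells.

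Of genes lower in post-rescue than in pre-rescue cells, Avpr1a differed by −1.62 ± 0.21 (limma adjusted p = 0.0198) and Hectd2 by −1.49 ± 0.146 (limma adjusted p = 0.00758), and pre-rescue cells stood at 0.25 and −0.03 against null. Fam180a differed by −0.80 ± 0.127 (limma adjusted p = 0.0386). Its differences from null were 1.15 in post-rescue and 1.96 in pre-rescue cells.

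The other 10 belonged to the time-course set of genes higher after tamoxifen and were higher in post-rescue than in pre-rescue cells. Foxp2 differed by 5.11 ± 0.657 (limma adjusted p = 0.019), Rorb by 4.74 ± 0.347 (limma adjusted p = 0.00288) and Plag1 by 4.68 ± 0.254 (limma adjusted p = 0.00127), with changes against null of 0.52, 0.54 and 0.22 in post-rescue cells and of −4.59, −4.20 and −4.45 in pre-rescue cells. Chchd7, the neighbour of Plag1, differed by 2.34 ± 0.112 (limma adjusted p = 0.00103). Hoxb9 differed by 3.08 ± 0.491 (limma adjusted p = 0.0403), Igf2bp3 by 2.94 ± 0.285 (limma adjusted p = 0.00751) and Cpa6 by 2.92 ± 0.349 (limma adjusted p = 0.0154). Prkaa2 differed by 1.39 ± 0.16 (limma adjusted p = 0.014), Phf19 by 1.18 ± 0.0858 (limma adjusted p = 0.00288) and Hoxb13 by 0.70 ± 0.0842 (limma adjusted p = 0.0154). Of these 10, Prkaa2 and Hoxb13 fell in post-rescue against null cells.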

How the results depend on the processing

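No set median changed direction, nor did any of the 51 called genes named in the text. The balance of lower and higher counts did change in places. For null against control it went from 142 lower and 225 higher to 352 and 235 with arrays centred on their medians. Against Ezh2 pre-rescue it went from 58 and 108 to 177 and 122 with that centring. Without the block 20 list members fell and 24 rose, against 16 and 11. Of the 79 genes named, 10 changed sign, and none of these was called. As reported, 77 genes were lower and 36 higher, 33 and 15 of them by at least 2-fold, 16 list members fell and 11 rose, and 36 of the up set fell. Without the replicate number as a block, 143 genes were lower and 122 higher (76 and 35 of them shared with the reported calls), 26 higher by at least 2-fold, 24 list members rose, 5 of the up set and 13 of the down set rose, and the counts were 70 lower against control, 264 lower for null against control and 121 lower and 170 higher against Ezh2 pre-rescue. With only the 4 arrays and the replicate block, 125 were lower and 101 higher, 26 higher by at least 2-fold, 20 list members rose, 58 of the up set fell and 7 rose, and 15 of the down set rose. With those 4 arrays and no block, 26 were lower and 12 higher, 19 and 8 by at least 2-fold, 6 list members fell and 6 rose, 21 of the up set fell and 3 of the down set rose. Centring arrays on their medians gave 94 lower and 67 higher, 25 higher by at least 2-fold, 17 list members, 4 of the up set and 14 of the down set that rose, 82 lower against control, 352 lower for null against control and 177 lower against Ezh2 pre-rescue. Quantile normalization put Chchd7 at −0.016 and gave 77 higher (57.5% of calls lower, against 68.1% as reported) and 98 lower against Ezh2 pre-rescue. An intensity trend gave 60 higher, with 17 list members, 4 of the up set and 14 of the down set. At an adjusted p under 0.15, 395 were lower and 363 higher, 52 and 32 by at least 2-fold, 46 list members fell and 50 rose, 86 of the up set fell and 9 rose, and 35 of the down set rose and 1 fell. Time-course sets at any fold (2472 and 1620 genes) had 61 that fell, 4 that rose and 2235 within 2-fold in the up set, 23 that rose, 2 that fell and 1415 within 2-fold in the down set, and medians of −0.15 and 0.18. Sets at 4-fold or more (55 and 28 genes) had 9 that fell, 0 that rose and 13 within 2-fold in the up set, 3 that rose and 8 within 2-fold in the down set, and medians of −0.62 and 0.61. Sets from day 32 alone had 337 and 181 within 2-fold and an up set median of −0.30. The cause of these shifts was not tested, beyond the fewer arrays, other thresholds or other set sizes that define them.

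Leaving out 1 array at a time gave 2 to 187 lower and 1 to 187 higher, 2 to 74 and 1 to 54 by at least 2-fold, 17661 to 18341 within 2-fold, 0 to 31 list members that fell and 1 to 26 that rose, 2 to 61 that fell, 0 to 9 that rose and 144 to 201 within 2-fold in the up set, 0 to 26 that rose, 0 to 0 that fell and 65 to 105 within 2-fold in the down set, and medians of −0.43 to −0.30 and 0.24 to 0.50. Over the same arrays left out, the differences that changed sign ran from −3.33 to 0.45 for Aldh1a1, −0.094 to 0.0998 for Chchd7, −0.078 to 0.12 for Clspn, −0.80 to 1.48 for Efna5, −0.012 to 0.36 for Fn1, −0.12 to 1.16 for Foxp2, −1.47 to 0.24 for Hoxb9, −1.09 to 0.071 for Igf2bp3, −0.12 to 0.23 for Lig1 and −0.19 to 0.63 for Plag1. Of the 51 genes, 2 (Chn1 and Tlcd4) passed under each alternative run on them.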
